A study of Homo sapiens with 7 samples.

Results

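The Hippo pathway regulators described here are 10 genes chosen by name: the coactivators YAP1 and WWTR1 (TAZ), the DNA-binding factors TEAD1 and TEAD4, the kinases LATS1 and LATS2, the angiomotin-like proteins AMOTL1 and AMOTL2, and the upstream proteins NF2 (merlin) and SAV1. Of these, 9 were measured among the 14535 genes of the table, and all 9 passed the filter on low counts that left 11230 tested genes. LATS2 was not analysed here. The RNA came from A549 cells, a human lung adenocarcinoma line of epithelial type, sorted as positive for β-galactosidase, whose activity is commonly stained to find senescent cells. For stretch there are 4 libraries (numbered 4 to 7), whose cells had been exposed to cyclic stretch, at 15% elongation and 15 cycles per min for 24 h. For doxorubicin there are 3 libraries (1 to 3), whose cells had received 100 nM doxorubicin, a drug that breaks DNA, for 24 h. In both groups staining was assessed after 6 days and only positive cells were taken. Both groups are thus of 1 cell line and both are stain-positive, no untreated cells were analysed here, and whether each library is its own culture is not stated in the labels. The p-values therefore cover the spread of these libraries, which may be technical.

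The Hippo pathway is a kinase cascade that restrains growth and reads cell shape and tension. STK3 and STK4 kinases, held by the scaffold SAV1, activate the LATS kinases, which NF2 brings to the plasma membrane. LATS kinases phosphorylate YAP1 and TAZ, which are then kept in the cytoplasm or degraded, while unphosphorylated YAP1 and TAZ enter the nucleus and switch on genes through TEAD factors. Angiomotins bind YAP1 and TAZ outside the nucleus, and AMOTL2 and LATS2 are themselves known TEAD target genes, which closes a feedback loop. Stretching epithelial cells is known to drive YAP1 into the nucleus. The libraries measure messenger RNA, so phosphorylation and location of these proteins were not measured.

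Promoter windows from RefSeq (GRCh38.p14, 250 bases before to 50 after a transcript start) were found for 7 of the 9 genes and searched on both strands for CATTCC, the core of the TEAD motif (GGAATG on the other strand). Among these genes AMOTL2 and YAP1 each had 1 match, and 14% of all 35116 windows of 300 bases held 1 or more. That share is per window, and WWTR1, LATS1, AMOTL2 and NF2 had 2 windows each, so a count per gene cannot be set against it. AMOTL2 is shown because it is a known TEAD target and its groups did not overlap, YAP1 because its window holds the other match, and NF2 because it had the lowest p of the 9 genes. Capitals mark the match. The windows are chr3:134374398-134374697 on the minus strand for AMOTL2, chr11:102110197-102110496 on the plus strand for YAP1 and chr22:29603383-29603682 on the plus strand for NF2.
AMOTL2: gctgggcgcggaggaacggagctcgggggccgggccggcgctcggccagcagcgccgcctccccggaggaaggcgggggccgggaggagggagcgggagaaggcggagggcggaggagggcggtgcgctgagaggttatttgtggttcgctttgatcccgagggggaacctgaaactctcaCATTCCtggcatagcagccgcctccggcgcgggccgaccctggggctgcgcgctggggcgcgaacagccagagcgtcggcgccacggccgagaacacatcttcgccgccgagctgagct
YAP1: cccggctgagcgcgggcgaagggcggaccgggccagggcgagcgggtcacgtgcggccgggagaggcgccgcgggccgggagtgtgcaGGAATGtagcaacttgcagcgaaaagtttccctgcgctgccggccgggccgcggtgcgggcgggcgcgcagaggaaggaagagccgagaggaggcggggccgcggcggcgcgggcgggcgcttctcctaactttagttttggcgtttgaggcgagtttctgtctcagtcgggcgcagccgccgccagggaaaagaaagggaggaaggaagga
NF2: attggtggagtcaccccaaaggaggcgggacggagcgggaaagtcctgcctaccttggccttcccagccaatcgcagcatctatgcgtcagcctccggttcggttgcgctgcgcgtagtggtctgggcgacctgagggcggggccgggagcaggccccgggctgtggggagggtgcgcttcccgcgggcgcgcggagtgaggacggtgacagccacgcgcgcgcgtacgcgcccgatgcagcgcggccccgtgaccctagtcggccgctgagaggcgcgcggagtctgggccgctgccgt
In AMOTL2 the match began 69 bases before the transcript start of that window, and a window at another start of the gene held none. In YAP1 it began 162 bases before the start, and the NF2 windows held none. A window of LATS1 had 1 match to TGANTCA, a pattern for the AP-1 motif in which N was allowed to be any base. The letters matched were TGAATCA. The pattern reads the same on both strands, and 7.71% of all windows hold it. A match describes letters only.

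Library depth and composition differed between the groups. Total counts were 5636386 to 7419778 in the stretch libraries and 2611739 to 4644250 in the doxorubicin libraries. A single gene, EIF4A2, took 1.67% to 2.87% of the counts in stretch and 10.8% to 30.6% in doxorubicin, the most in library 2. Values below are CPM (counts scaled to a common library size) of library sizes scaled by TMM, a method that sets the bulk of genes equal between libraries, and 3 counts were worth 0.321 to 0.401 CPM in stretch and 0.567 to 2.59 CPM in doxorubicin. Log-CPM correlated across genes at 0.939 to 0.978 between stretch libraries and at 0.754 to 0.884 between doxorubicin libraries, and the mean correlation with the stretch libraries was 0.866, 0.75 and 0.923 for doxorubicin libraries 1, 2 and 3. The 10 markers of A549 cells summed to 6053 to 8816 CPM in stretch and 5867 to 9269 CPM in doxorubicin, but single markers lay on opposite sides. KRT18, an epithelial keratin, was lower in stretch, at 401 to 514 CPM in stretch and 1018 to 2763 CPM in doxorubicin (log2 fold change -2.20, stretch minus doxorubicin as in all that follow, adjusted p = 0.0199 by edgeR's quasi-likelihood test). EPCAM, ALDH1A1 and AKR1C1 did not overlap the other way, with fitted levels 3.46, 2.78 and 2.09 times higher in stretch that did not pass (adjusted p = 0.0574, 0.213 and 0.149 by edgeR), and AKR1C2 stood at 0 to 0.323 CPM in stretch and 0 to 1.59 CPM in doxorubicin. Among markers of other cells, 3 of 5 leukocyte genes summed to 57.5 to 61.0 CPM in stretch and 100.2 to 139 CPM in doxorubicin. Of these CD68 was lower in stretch, with a mean of 18.6 ± 1.44 CPM in stretch and 75.6 ± 28.7 CPM in doxorubicin (SD, n = 4 and n = 3; log2 fold change -2.02, adjusted p = 0.0158 by edgeR), while LYZ stood at 27.1 to 31.3 CPM in stretch and 15.6 to 42.5 CPM in doxorubicin. CD14 stood at 8.71 to 13.8 CPM in stretch and 9.93 to 11.2 CPM in doxorubicin, so the higher sum in doxorubicin came from CD68. The 4 of 6 fibroblast genes with values summed to 7.35 to 10.4 CPM in stretch and 9.26 to 18.2 CPM in doxorubicin, and the endothelial gene CDH5 stood at 0 to 0.963 CPM in stretch and at 0 in doxorubicin. The part of these differences or of other cells in the results was not tested, and in bulk RNA fewer cells of a type cannot be told apart from less RNA per cell.

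None of the 9 regulators reached significance between stretch and doxorubicin (edgeR's quasi-likelihood test, threshold 0.05 on the p adjusted over all genes), where 2.32% of all 11230 genes did. NF2 and AMOTL2 came nearest, each over 1 log2 unit toward doxorubicin, and they were the only 2 of the 9 with an unadjusted p under 0.05, a level that 23.2% of all genes reached. They were also the only 2 whose groups did not overlap, both with doxorubicin above stretch; the groups of 21.4% of all genes did not overlap, 9.88% with doxorubicin above. DESeq2 called these 2 of 9, beside 1315 of 13112 genes, and limma-voom called 0 of 9 beside 1.66%. The 2 of 9 regulators were a share close to that of all genes for an unadjusted p under 0.05 and for no overlap in either direction, and a larger share than that of all genes for no overlap with doxorubicin above and for DESeq2's calls. By side, 4 regulators lay toward stretch (SAV1 at 0.00 among them) and 5 toward doxorubicin, with a median log2 fold change of -0.56, beside 5748 and 5482 genes and a median of 0.02 over all genes.

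**Figure D1:**
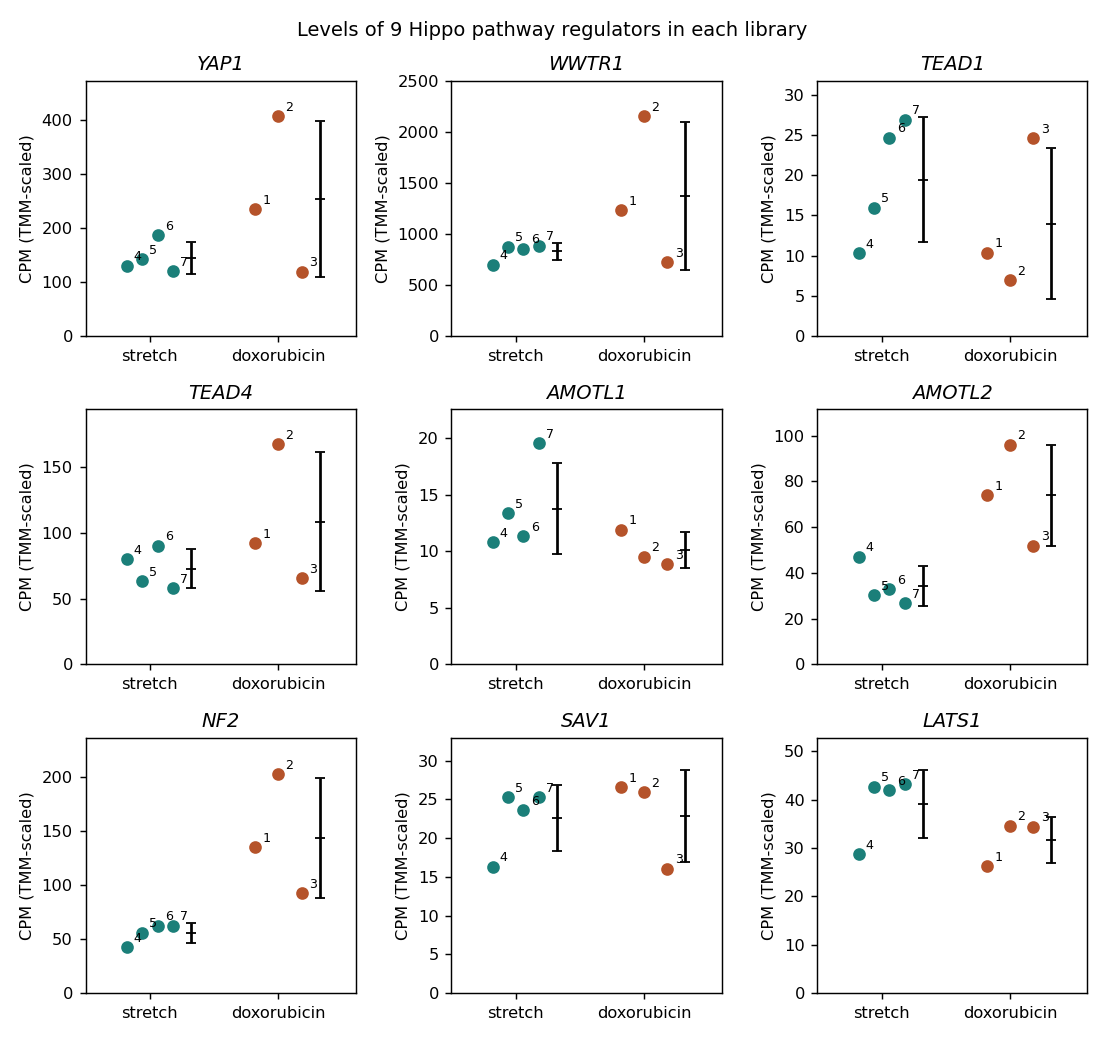
Levels of the 9 regulators in each library, in TMM-scaled CPM, with stretch libraries 4 to 7 on the left and doxorubicin libraries 1 to 3 on the right of each panel; points are libraries, labelled by number, and bars give the mean and SD. Only NF2 and AMOTL2 have groups that do not overlap. On this scale doxorubicin library 2, with a TMM factor of 0.443, is the highest library for YAP1, WWTR1, TEAD4, AMOTL2 and NF2. With library totals alone it is the lowest doxorubicin library for AMOTL2 and NF2.

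YAP1 (chromosome 11, 102110461 to 102233423, plus strand; GENCODE 29 on GRCh38), the coactivator at the end of the cascade, stood at 130, 142, 186 and 120 CPM in stretch libraries 4, 5, 6 and 7, against 234, 406 and 119 CPM in doxorubicin libraries 1, 2 and 3. Doxorubicin libraries 1 and 2 lay above every stretch library and library 3 below every one, so the groups overlapped. The log2 fold change was -0.81 ± 0.40 (SE; edgeR, adjusted p = 0.251). WWTR1 (chromosome 3, 149517235 to 149736714, minus strand), which codes the YAP1 paralogue TAZ, was arranged in a like way. Its levels were 700.4, 877, 855 and 885 CPM in stretch libraries 4 to 7, against 1236, 2158 and 726 CPM in doxorubicin libraries 1 to 3. Doxorubicin libraries 1 and 2 again lay above the stretch range, library 3 lay inside it, and the log2 fold change was -0.73 ± 0.37 (SE; edgeR, adjusted p = 0.262). The means were 144 ± 29.4 against 253 ± 145 CPM for YAP1 and 829 ± 87.0 against 1373 ± 726 CPM for WWTR1 (SD; n = 4 stretch, n = 3 doxorubicin). Set against doxorubicin library 3 alone, the log2 fold changes were 0.30 for YAP1 and 0.21 for WWTR1, on the stretch side, and without that library they were -1.12 and -1.00, past the threshold (adjusted p = 0.0170 and 0.0189 by edgeR, where 32.2% of all genes passed). Without doxorubicin library 2, the highest for both genes, they were -0.28 and -0.23.

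TEAD1 (chromosome 11, 12674591 to 12944483, plus strand) and TEAD4 (chromosome 12, 2959330 to 3040673, plus strand) code factors that bring YAP1 and TAZ to DNA, and neither passed the test. TEAD1 stood at 10.3, 15.9, 24.6 and 26.9 CPM in stretch libraries 4 to 7, against 10.3, 6.92 and 24.6 CPM in doxorubicin libraries 1 to 3. Its value in doxorubicin library 2 rests on 8 counts, and library 3 lay within the stretch range. The log2 fold change was 0.41 ± 0.48 (SE; edgeR, adjusted p = 0.630), 0.13 without doxorubicin library 2, 1.15 without library 3 and -0.32 against library 3 alone. TEAD4 stood at 80.0, 63.6, 90.5 and 58.1 CPM in stretch, against 92.1, 168 and 65.8 CPM in doxorubicin libraries 1 to 3. Doxorubicin library 1 lay just above the stretch range, library 2 far above it and library 3 inside it, and the log2 fold change of -0.56 ± 0.36 (SE; edgeR, adjusted p = 0.362) became -0.10 without doxorubicin library 2.

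AMOTL1 (chromosome 11, 94706431 to 94876753, plus strand) and AMOTL2 (chromosome 3, 134355874 to 134375479, minus strand) code angiomotin-family scaffolds that bind YAP1 and TAZ, and they lay on opposite sides. AMOTL2 stood at 47.1, 30.4, 32.9 and 26.8 CPM in stretch libraries 4 to 7, against 73.9, 96.0 and 52.0 CPM in doxorubicin libraries 1 to 3. Every stretch library was below every doxorubicin library, with stretch library 4 and doxorubicin library 3 closest to each other. The means were 34.3 ± 8.91 CPM in stretch (SD, n = 4) and 73.9 ± 22 CPM in doxorubicin (SD, n = 3). The log2 fold change was -1.10 ± 0.32 (SE; edgeR, adjusted p = 0.0855), a 2.14-fold higher fitted level in doxorubicin, and -0.59 against doxorubicin library 3 alone. AMOTL1 stood at 10.8, 13.4, 11.4 and 19.6 CPM in stretch, against 11.9, 9.51 and 8.88 CPM in doxorubicin. The groups overlapped through doxorubicin library 1, and the log2 fold change was 0.45 ± 0.35 (SE; edgeR, adjusted p = 0.451), and 0.23 without stretch library 7.

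NF2 (chromosome 22, 29603556 to 29698598, plus strand), the tumour suppressor merlin that links cortical actin to the LATS kinases, had the lowest p of the 9. It stood at 42.3, 55.7, 62.3 and 62.3 CPM in stretch libraries 4 to 7, against 135, 203 and 92.6 CPM in doxorubicin libraries 1 to 3. All 4 stretch libraries lay below all 3 doxorubicin libraries. The means were 55.7 ± 9.41 CPM in stretch (SD, n = 4) and 144 ± 55.8 CPM in doxorubicin (SD, n = 3). The log2 fold change was -1.36 ± 0.33 (SE; edgeR, adjusted p = 0.0566), a 2.57-fold higher fitted level in doxorubicin that missed the threshold. It was negative in each of the 17 alternative settings, from -1.57 to -0.46, and -0.72 against doxorubicin library 3 alone. It passed in 3 of them, which were DESeq2, limma-voom with library quality weights and the fit without doxorubicin library 3.

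SAV1 (chromosome 14, 50632058 to 50668331, minus strand), the scaffold of the upstream kinases, stood at 16.3, 25.2, 23.6 and 25.3 CPM in stretch libraries 4 to 7, against 26.6, 25.9 and 16.1 CPM in doxorubicin libraries 1 to 3. The groups covered nearly the same range, with a log2 fold change of 0.00 (SE 0.31), so that a difference of 0.31 log2 units either way is within 1 SE. LATS1 (chromosome 6, 149658153 to 149718256, minus strand), the kinase that phosphorylates YAP1 and TAZ, stood at 28.7, 42.7, 41.9 and 43.2 CPM in stretch, against 26.2, 34.6 and 34.4 CPM in doxorubicin. Stretch libraries 5, 6 and 7 lay above every doxorubicin library and library 4 among them. The log2 fold change was 0.31 ± 0.29 (SE; edgeR, adjusted p = 0.545), positive in each of the 17 alternatives, from 0.19 to 1.02.

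The direction of several regulators rested on the scaling between libraries. With library totals alone in place of TMM, the median log2 fold change of all genes moved by 0.69 toward stretch, and YAP1, WWTR1 and TEAD4 turned to 0.19, 0.24 and 0.37, below that shift. In CPM of library totals NF2 stood at 56.2, 70.2, 77.8 and 79.9 in stretch libraries 4 to 7, against 98.7, 89.98 and 106 in doxorubicin libraries 1 to 3. The groups of NF2 thus did not overlap on either scale. On the same scale AMOTL2 stood at 34.4 to 62.6 CPM in stretch and 42.5 to 59.2 CPM in doxorubicin, which overlap. AMOTL1, at 14.2 to 25.1 CPM in stretch and 4.21 to 10.1 CPM in doxorubicin, and SAV1, at 21.6 to 32.4 CPM in stretch and 11.5 to 19.4 CPM in doxorubicin, did not overlap on that scale, where 32.9% of all genes did not. Relative to the shift of all genes, at log2 fold changes of 1.18 and 0.81, they lay less than 0.5 log2 units from it.

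**Figure D2:**
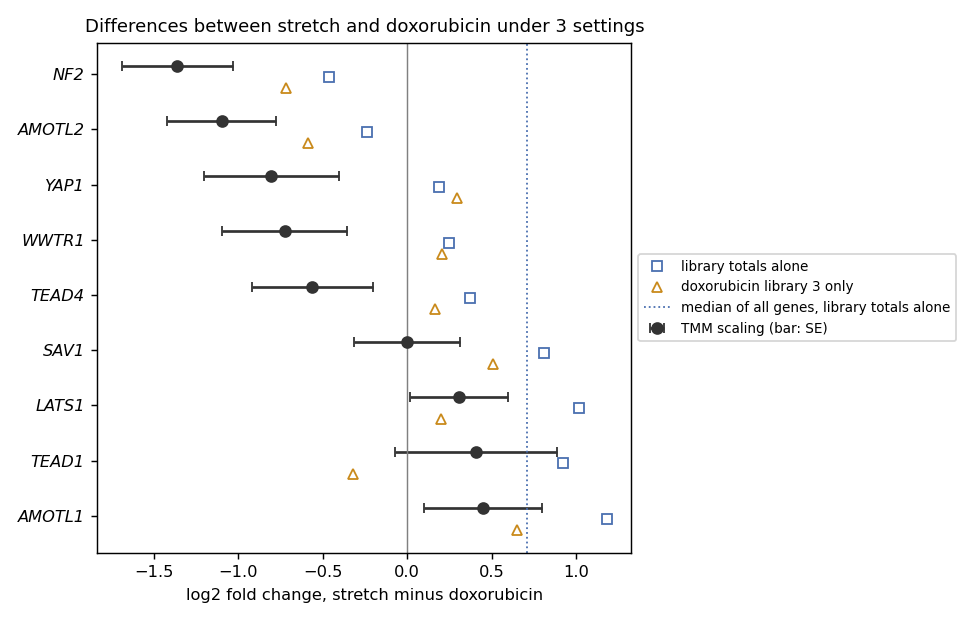
Log2 fold change (stretch minus doxorubicin, horizontal axis) of each regulator (rows) with TMM scaling (filled points, bars give the SE), with library totals alone (squares) and with library 3 alone standing for doxorubicin (triangles); the dotted line is the median of all genes with library totals alone. NF2 and AMOTL2 stay below 0 in all 3 settings, whereas YAP1, WWTR1 and TEAD4 lie above 0 in both other settings.

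The ratio of paralogues counted in the same library does not depend on that scaling, and 3 such ratios were compared with a two-sided exact permutation test over libraries, in which 4 against 3 libraries cannot give a p below 0.0571. Counts of AMOTL2 over AMOTL1 were 4.34, 2.27, 2.89 and 1.37 in stretch libraries 4 to 7, against 6.11, 9.70 and 5.80 in doxorubicin libraries 1 to 3. Every stretch library had the lower ratio. The mean log2 ratio was 1.32 ± 0.70 in stretch and 2.81 ± 0.41 in doxorubicin (SD, n = 4 and n = 3), a difference of -1.49 with the smallest exact p, 0.0571, and 0.171 adjusted over the 3 ratios. The AMOTL1 count behind the highest ratio, in doxorubicin library 2, was 11. WWTR1 over YAP1 stood at 5.39, 6.19, 4.59 and 7.40 in stretch, against 5.27, 5.31 and 6.11 in doxorubicin. The doxorubicin values lay inside the stretch range, and the mean log2 ratio differed by 0.06 (exact permutation p = 0.629), with SDs of 0.29 in stretch and 0.12 in doxorubicin. TEAD4 over TEAD1 stood at 7.74, 3.98, 3.67 and 2.16 in stretch, against 8.77, 22.9 and 2.67 in doxorubicin. Doxorubicin library 3 again sat among the stretch libraries, and the difference of -1.04 in mean log2 ratio had an exact permutation p of 0.343.

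**Figure D3:**
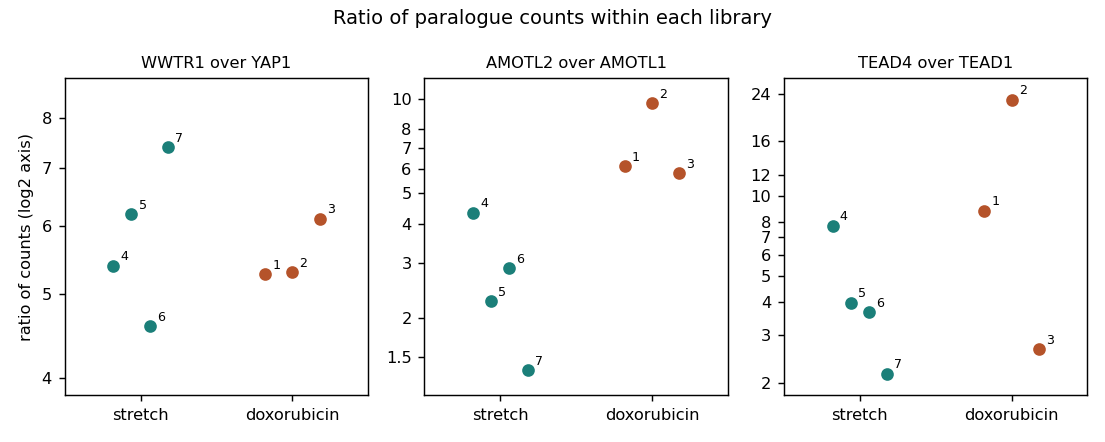
Ratio of paralogue counts (log2 axis) within each library, stretch libraries on the left and doxorubicin libraries on the right of each panel, with points labelled by library number. AMOTL2 over AMOTL1 reaches at most 4.34 in stretch and at least 5.80 in doxorubicin, whereas the groups of the other ratios overlap.

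The rest of the kinase cassette lay close to even between the groups. For this list and those that follow, the counts over all genes are 2.32% called by edgeR, 23.2% at an unadjusted p under 0.05 in edgeR, 1315 of 13112 called by DESeq2 and 1.66% by limma-voom. The groups of 21.4% of all genes did not overlap, 11.5% with stretch above and 9.88% with doxorubicin above. Of 7 tested kinases and cofactors (NF2, LATS1 and SAV1 among them), edgeR called 0, with 1 gene at an unadjusted p under 0.05 (NF2) and a median log2 fold change of 0.00. DESeq2 called 1 and limma-voom 0. MOB1B, a cofactor that activates LATS kinases, came next to NF2, at 12.9 to 19.6 CPM in stretch and 11.2 to 14.3 CPM in doxorubicin (log2 fold change 0.36, SE 0.31).

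Among 18 tested upstream regulators of 23 listed, 13 lay toward doxorubicin and edgeR called 0, with 4 at an unadjusted p under 0.05 (median -0.37); DESeq2 called 2 and limma-voom 0. The shares called, and at an unadjusted p under 0.05 in either direction, are close to those of all genes. All 4 at an unadjusted p under 0.05 lay toward doxorubicin, beside 1631 of 11230 genes in edgeR. By side, 5482 of 11230 genes lay toward doxorubicin, with a median of 0.02. WWC1 (KIBRA), which works with NF2 at the membrane, stood at 127, 175, 140 and 150 CPM in stretch libraries 4 to 7, against 342, 624 and 249 CPM in doxorubicin libraries 1 to 3. Its groups did not overlap, and its log2 fold change was -1.45 ± 0.35 (SE; edgeR, adjusted p = 0.0566). MINK1, a kinase of the MAP4K family that can activate LATS, stood at 49.5 to 103 CPM in stretch and 82.0 to 385 CPM in doxorubicin (log2 fold change -1.54, adjusted p = 0.0968 by edgeR), with doxorubicin library 3 inside the stretch range, and -0.78 without doxorubicin library 2.

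Of 14 tested inhibitors of the cassette (the STRIPAK phosphatase complex, which removes phosphate from STK3 and STK4, and LIM proteins that hold LATS), edgeR called 0, with 3 at an unadjusted p under 0.05 (median -0.32), DESeq2 1 and limma-voom 0, again close to the shares of all genes. WTIP and AJUBA, related LIM proteins at cell junctions, had the lowest p. WTIP stood at 23.5, 14.4, 17.7 and 11.1 CPM in stretch libraries 4 to 7, against 38.1, 160.0 and 38.9 CPM in doxorubicin libraries 1 to 3. Its groups did not overlap, but library 2 was far above the others, and the log2 fold change of -2.22 ± 0.52 (SE; edgeR, adjusted p = 0.0521) became -1.20 without it. AJUBA stood at 20.8 to 32.4 CPM in stretch and 40.1 to 77.0 CPM in doxorubicin, without overlap (log2 fold change -1.00, adjusted p = 0.113 by edgeR, and -0.66 without doxorubicin library 2). The other gene under 0.05 was PPP2CA, a catalytic subunit of the phosphatase PP2A that STRIPAK contains, and it lay toward stretch. It stood at 4.41 to 9.79 CPM in stretch and 0.865 to 3.21 CPM in doxorubicin, without overlap (log2 fold change 1.52, adjusted p = 0.117 by edgeR). Its lowest value, in doxorubicin library 2, is below the 2.59 CPM that equal 3 counts there.

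TEAD and VGLL factors did not move as a block. Of 6 tested, 3 lay on each side, edgeR called 0, with 2 at an unadjusted p under 0.05, DESeq2 2 and limma-voom 0. TEAD2 stood at 13.5, 10.2, 7.24 and 5.92 CPM in stretch libraries 4 to 7, against 17.5, 31.1 and 19.1 CPM in doxorubicin libraries 1 to 3 (log2 fold change -1.27, adjusted p = 0.0915 by edgeR). VGLL3, a cofactor that binds TEAD factors in place of YAP1 and TAZ, lay the other way, at 13.8, 15.1, 21.3 and 14.5 CPM in stretch, against 1.19, 2.59 and 9.64 CPM in doxorubicin libraries 1 to 3. Both had groups that did not overlap, as had 21.4% of all genes. The values of VGLL3 in doxorubicin libraries 1 and 2 each equal 3 counts. Its log2 fold change was 1.66 (adjusted p = 0.117 by edgeR). Without doxorubicin library 3 it was 3.28, which rests on those low values.

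Genes that retain or degrade YAP1 and TAZ showed no call either. Of 10 tested, edgeR, DESeq2 and limma-voom each called 0, with 2 at an unadjusted p under 0.05 in edgeR (median -0.08). These were the 14-3-3 proteins SFN, at 10.5 to 15.1 CPM in stretch and 15.6 to 23.1 CPM in doxorubicin, and YWHAB, at 129 to 231 CPM in stretch and 40.6 to 124 CPM in doxorubicin.

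Of 17 tested genes of a 22-gene YAP/TAZ target signature, which includes AMOTL2, 14 lay toward doxorubicin, beside 5482 of 11230 genes. These sides are with TMM scaling and all libraries, and they were not counted in the other settings. In edgeR 1 passed, TGFB2, beside 1.97% of all genes called in that direction. DESeq2 called 3 of the signature and limma-voom 1. TGFB2, a ligand of the TGF-beta receptors, stood at 83.6, 104, 80.2 and 90.0 CPM in stretch libraries 4 to 7, against 453, 669 and 178 CPM in doxorubicin libraries 1 to 3. It was lower in stretch in all 4 libraries (log2 fold change -2.27 ± 0.41, SE; edgeR, adjusted p = 0.0242) but it passed in only 9 of 17 alternative settings. It missed the threshold without doxorubicin library 1 and without each of the stretch libraries, with library totals (-1.27, adjusted p = 0.125 by edgeR), with library totals without EIF4A2 (-1.57, adjusted p = 0.0772) and against doxorubicin library 3 alone (-0.98, adjusted p = 0.106). The median of the 17 was -0.73, beside 0.02 over all genes, and 9 had an unadjusted p under 0.05, all toward doxorubicin, beside 1631 of 11230 genes.

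**Figure D4:**
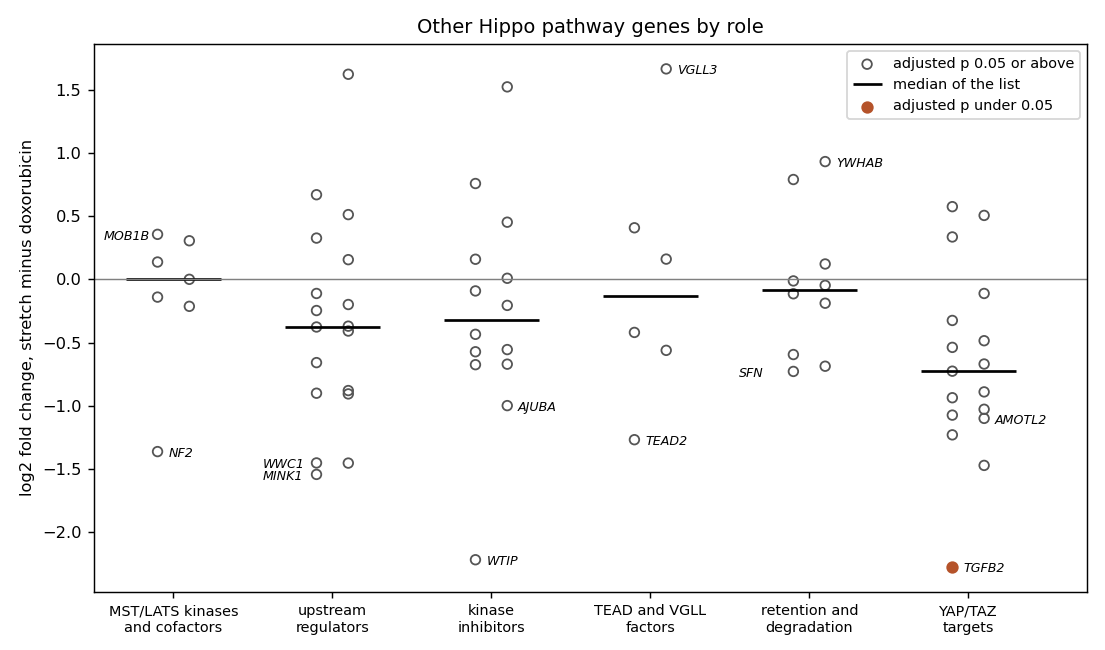
Log2 fold change (stretch minus doxorubicin, vertical axis) of every tested gene in 6 lists of Hippo pathway genes by role; filled points have an adjusted p under 0.05 by edgeR, open points do not, and lines are list medians. TGFB2 is the only filled point, NF2 is the lowest point of the kinase cassette, and among the targets TGFB2, ARHGEF17 and MYOF lie farther below 0 than AMOTL2.

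The calls on the regulators moved with the handling of the doxorubicin libraries. Without doxorubicin library 3, edgeR called 4 of 9 regulators, YAP1, WWTR1, AMOTL2 and NF2, all lower in stretch, where 32.2% of all genes were called. With limma-voom and library quality weights it was 6 of 9, with TEAD1 and LATS1 higher in stretch besides, where 47.0% of all genes were called. AMOTL2 and NF2 were the regulators called in each of these settings and by DESeq2, where 1315 of 13112 genes were called. Each passed in only those 3 of the 17 alternative settings and missed the threshold in the rest. With library totals alone their log2 fold changes were -0.24 and -0.46 (adjusted p = 0.625 and 0.293 by edgeR).

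**Figure D5:**
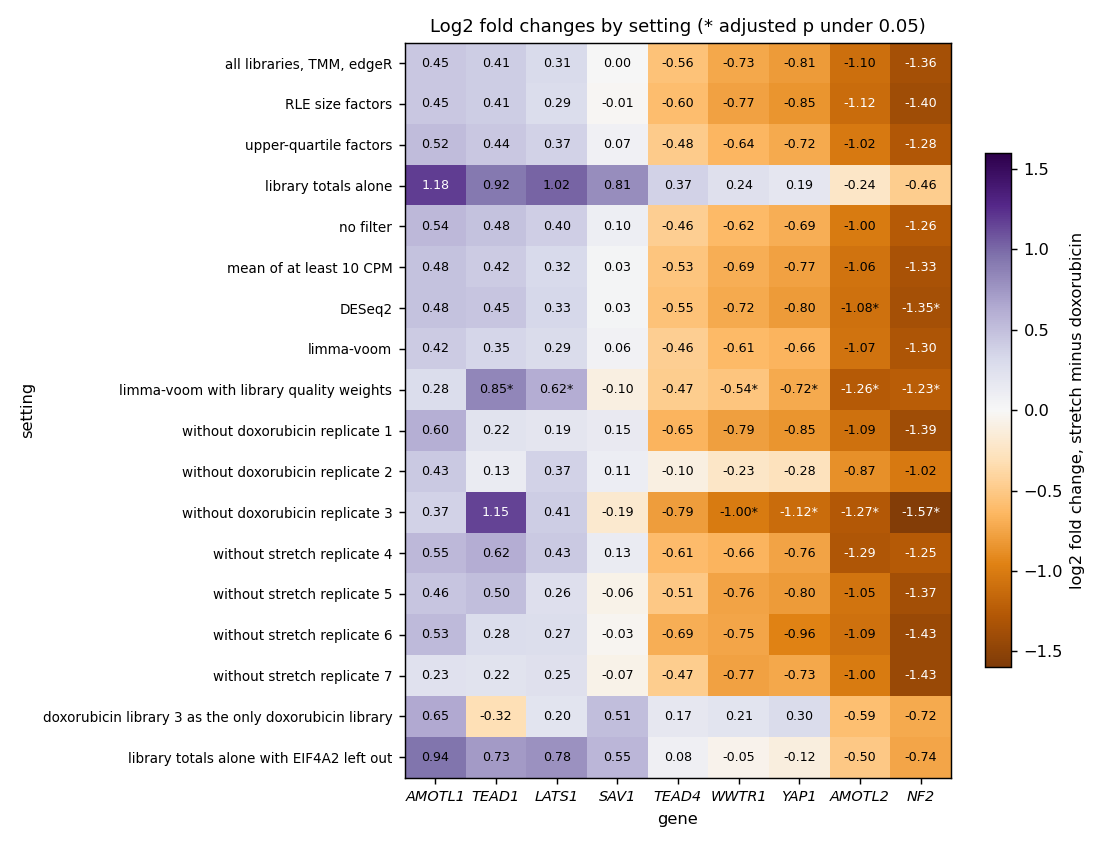
Log2 fold change (stretch minus doxorubicin) of the 9 regulators (columns) under every setting (rows); colour and number give the value and an asterisk an adjusted p under 0.05. NF2, AMOTL2, LATS1 and AMOTL1 keep their sign in every row, and the signs of YAP1, WWTR1, TEAD4, TEAD1 and SAV1 change in at least 1 row.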

How the data were processed

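Gene expression was measured in 7 libraries, 4 of stretched and 3 of doxorubicin-treated A549 cells, made with an Ion AmpliSeq kit, per the labels' protocols. The authors deposited 1 count table, whose whole numbers were taken as rounded estimated counts with no scaling between libraries. The submitters' processing notes name fastp 0.20.1, Salmon 1.9 and the build GRCh38. Neither the annotation nor the use of strand is given in the sources used here. Of the regulators' exons, those of YAP1, WWTR1, LATS1, AMOTL1 and SAV1 overlap a gene on the other strand and those of AMOTL2 a pseudogene, and YAP1 has pseudogene copies, so reads shared with these are uncertain. The kit amplifies part of each transcript by PCR without molecular identifiers, so levels of different genes were not compared and counting precision is overstated.

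Rows of 64 repeated symbols were summed and 1 row that names no gene, at most 0.00861% of a library, was left out, which gave 14535 of 14647 rows. Genes kept by filterByExpr were scaled by TMM and tested with edgeR 4.0.16 (R 4.3.3), robust glmQLFit and glmQLFTest. The contrast was stretch minus doxorubicin, and p was adjusted by Benjamini-Hochberg over the 11230 tested genes (threshold 0.05). TMM factors were 1.25 to 1.33 in stretch and 0.443 to 1.14 in doxorubicin. The SE is the absolute log2 fold change over the square root of F. Ratios used counts plus 0.5. Other settings tried were scaling by upper quartiles, RLE or library totals, 2 other filters, DESeq2 1.42.0, limma 3.58.1 voom without and with quality weights, each library left out, doxorubicin library 3 alone and, chosen after seeing the data, library totals without EIF4A2. No libraries agreed within sampling noise (chi-square per degree of freedom at least 8.02 in 21 pairs). On simulated counts with 11169 tested genes, edgeR found 6% of the genes changed 2-fold between stretch and doxorubicin and 78% of those changed 4-fold, with 8 false calls among 147. Those rates describe the simulated counts only. Whether they carry over to the measured counts, in which doxorubicin libraries were less alike than stretch libraries, was not tested.

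The regulators, the lists and the tests were chosen with earlier results of these data known. Named genes are the regulators and, in each list, up to 4 called genes or else the 2 with the lowest p; for the regulator with the lowest p, the 3 genes of nearest profile were named. PPP2CA, ARHGEF17, MYOF and single markers of cell types fall outside that rule and were named after their values were seen. Coordinates are from GENCODE 29.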

Additional observations from a re-analysis of the deposited data

Results flagged for a closer look

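In the 4 stretch libraries, the level of each named gene and each ratio was examined for a library standing far from the others, which gave 3 cases among 22, where chance gives about 1 in 20. WWTR1 stood at 700.4 CPM in stretch library 4, with the nearest library at 855 CPM. LATS1 stood at 28.7 CPM in the same library, with the nearest at 41.9 CPM, and its log2 fold change was 0.43 without that library and 0.31 with it. SFN stood at 15.1 CPM in stretch library 7, with the nearest at 10.9 CPM.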

How the results depend on the processing

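No paired analysis was possible because the groups share no replicate number. The count of regulators past the threshold, 0, became 2 with DESeq2, 6 with quality weights and 0 to 4 with each library left out, and stayed 0 in the other settings. Over all genes, 261 calls became 13 with library totals, 143 with a mean of at least 10 CPM, 1315 with DESeq2, 5276 with quality weights, 99 with doxorubicin library 3 alone, 15 with library totals without EIF4A2 and 12 to 3736 with each library left out (23 and 3736 without doxorubicin libraries 1 and 3; 40, 16, 12 and 12 without stretch libraries 4 to 7). For the kinase cassette, upstream regulators, inhibitors, TEAD and VGLL factors, retention genes and targets, DESeq2 called 1, 2, 1, 2, 0 and 3, quality weights 2, 9, 5, 4, 5 and 11, and leaving out each library 0 to 1, 0 to 7, 0 to 5, 0 to 2, 0 to 3 and 0 to 8. Without a filter 1 inhibitor was called, and library totals, with or without EIF4A2, called 0 targets. YAP1, WWTR1 and TEAD4 reversed to 0.19, 0.24 and 0.37 with library totals and to 0.30, 0.21 and 0.17 with doxorubicin library 3 alone, where TEAD1 became -0.32, and TEAD4 was 0.084 with library totals without EIF4A2. SAV1, at 0.00, had -0.015 with RLE, -0.10 with quality weights and -0.19 to 0.15 with each library left out. The log2 ratio of WWTR1 over YAP1 differed by -0.052 to 0.18 with each library left out, that of AMOTL2 over AMOTL1 by -1.75 to -1.20 and that of TEAD4 over TEAD1 by -1.84 to -0.29; a pseudocount of 2 turned none of the 3. The cause of these changes was not tested, except that fewer genes or libraries enter some settings. Where 1 doxorubicin library remained, it was assumed to vary like the stretch libraries. Among the regulators, depth limits TEAD1 and AMOTL1 most, with 8 and 11 counts in doxorubicin library 2.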

Other observations

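The genes whose levels followed NF2 most closely over the 7 libraries were PUSL1, BBS1 and FHL2, out of 7492 genes with a mean of at least 10 CPM, by the distance between log2 CPM profiles centred on their own means (0.22, 0.29 and 0.31 log2 units). FHL2 codes a LIM-domain protein of the actin cytoskeleton and nucleus. It stood at 46.9, 56.5, 67.4 and 59.5 CPM in stretch libraries 4 to 7, against 148, 249 and 89.6 CPM in doxorubicin libraries 1 to 3. As with NF2, every stretch library lay below every doxorubicin library, and the log2 fold change of -1.49 did not pass (adjusted p = 0.0566 by edgeR). BBS1, a component of the complex that carries membrane proteins to cilia, had a log2 fold change of -1.38 and PUSL1, a pseudouridine synthase-like protein, of -1.24. Since likeness was taken over the same libraries that differ between the groups, it describes these libraries only.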
